A study of Homo sapiens with 6 samples.

Results

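The RNAs described here are 9 long noncoding RNAs, selected by gene symbol. The selection rule uses no measured value, but the list was drawn up with earlier results of these data known. GAS5, SNHG1, SNHG5, SNHG7, SNHG8, SNHG10 and SNHG12 are hosts of small nucleolar RNAs (snoRNAs) or of a small Cajal body RNA (scaRNA), and MALAT1 and NEAT1 are RNAs of nuclear bodies. They are 9 genes beside 20044 named genes that had a probe in the table. The annotation used here listed 11 probes for 8 of them, and NEAT1 was not analysed here for want of a listed probe. Of the 11 probes, 9 probes of 6 genes passed the filter on detection, and the single probes of GAS5 and MALAT1 did not.

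The samples were 6 RNA preparations of UWB1.289, a human ovarian carcinoma line that lacks functional BRCA1. Of these, 3 received a scrambled control small interfering RNA (siRNA) and 3 an siRNA against HBO1, the histone acetyltransferase encoded by KAT7, and total RNA was taken 48 hours after transfection. The comparison asks what lowering HBO1 does to transcript levels in this line. Whether the replicates were separate cultures is not stated in the labels. The p-values therefore reflect the spread among these 6 samples alone, and that spread may be technical. The siRNA sequences were not known here, so other transcripts silenced by the siRNA could not be separated from the loss of HBO1.

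Host genes of this kind are transcribed and spliced like a messenger RNA, while the snoRNAs are trimmed out of the introns that splicing removes. Box C/D snoRNAs (SNORD) guide 2′-O-methylation and box H/ACA snoRNAs (SNORA) guide pseudouridylation of ribosomal RNA, and scaRNAs do the same for spliceosomal RNAs. The spliced host RNAs carry little or no conserved protein, and several are cleared by nonsense-mediated decay when they are translated. NEAT1 is the scaffold of paraspeckles, MALAT1 resides in nuclear speckles, and GAS5 was first isolated from growth-arrested cells.

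Many snoRNA hosts, coding and noncoding, begin with a 5′-terminal oligopyrimidine tract, the element through which growth signals control translation of ribosomal protein messengers. The annotated start sites of the 6 measured hosts are shown for that reason, each as 60 bases in the sense direction with 30 before the start and 30 from the start on, from RefSeq on GRCh38.p14. Capitals mark every stretch made of a C followed by at least 4 C or T, where that C lies within 10 bases of the annotated start, searched on the sense strand.
SNHG1, chr11:62855856-62855915, minus strand: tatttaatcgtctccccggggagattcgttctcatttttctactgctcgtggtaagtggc
SNHG5, chr6:85678704-85678763, minus strand: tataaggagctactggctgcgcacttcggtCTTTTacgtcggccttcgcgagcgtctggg
SNHG7, chr9:136728155-136728214, minus strand: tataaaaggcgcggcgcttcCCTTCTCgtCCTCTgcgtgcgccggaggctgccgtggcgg
SNHG8, chr4:118278732-118278791, plus strand: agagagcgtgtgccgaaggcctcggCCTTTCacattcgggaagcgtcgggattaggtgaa
SNHG10, chr14:95534843-95534902, minus strand: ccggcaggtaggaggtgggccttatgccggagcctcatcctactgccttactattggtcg
SNHG12, chr1:28581844-28581903, minus strand: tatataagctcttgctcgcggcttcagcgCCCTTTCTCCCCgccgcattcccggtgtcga
Such a tract was present in 4 of the 7 host windows, those of SNHG5, SNHG7, SNHG8 and SNHG12, and in 33.5% of all 35116 RefSeq start windows. The 7 include GAS5, whose window is not printed and held no such tract. Only 1 annotated start per host was searched, so a tract at another start would be missed. A C at the annotated start base followed by at least 4 C or T, with or without pyrimidines before it, was present in SNHG5 and SNHG12, which are 2 of 7 windows, against 4.07% of all windows. The E-box CACGTG, which reads the same on both strands, was found in the 300-base window of SNHG7 alone among the hosts, and in 7.26% of all windows. A match describes the letters of the window and is not shown to be a used site.

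Of 47316 probes, control arrays detected 21262 to 21507 and HBO1 siRNA arrays 20546 to 21175, without overlap between groups. The part of this difference in the results for dim probes below was not tested. KAT7 fell from a normalised log2 intensity of 7.82 to 5.95, a log2 fold change of -1.87 (SE 0.20, limma adjusted p = 0.0187), and kept its call under 10 of 14 alternatives. Its value was -0.74 without background correction, and its call was lost without control replicate 2 or 3 or HBO1 siRNA replicate 1 or 2, at -2.04 to -1.69. Over all tested probes, 582 of 21333 were called at an adjusted p under 0.05, which is 2.73%, with 314 higher and 268 lower. The split depended on the scaling and was 235 higher and 379 lower with median scaling. Of 9 markers of ovarian epithelial carcinoma, 8 were detected on all 6 arrays, and MUC16 and CDH1 were called higher after HBO1 siRNA, under 11 and 7 of 15 alternatives as well. The median log2 fold change of the 9 was 0.05. Of the 9, 1 was negative, at -0.53, lower at limma's unadjusted p under 0.05 and not called. The leukocyte markers PTPRC and CD3E, the endothelial markers KDR and TEK, and the fibroblast markers COL3A1, LUM, PDGFRA and PDGFRB were detected on 0 arrays. On all 6 arrays, 3 of 5 leukocyte, 2 of 5 endothelial and 2 of 8 fibroblast markers were detected. At limma's unadjusted p under 0.05, 2 of 3 tested leukocyte, 1 of 2 endothelial and 1 of 4 fibroblast markers were higher and 0 lower. Over all genes 1577 of 12227 were higher at that level, and 0 of these markers were called. The summed linear signal of the fibroblast list was 649.0 to 896.3 on control arrays and 866.5 to 1236 on HBO1 siRNA arrays. That of the leukocyte list was 1429 to 1973 against 1669 to 2022, and that of the endothelial list 545.6 to 869.5 against 716.9 to 931.1, and their part in the results below was not tested.

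In limma's test 0 of the 9 tested member probes passed an adjusted p of 0.05, beside 2.73% of all tested probes. Before adjustment, 1 probe was higher and 1 lower at p under 0.05. The median log2 fold change of the 9 probes was -0.09, with a range of -0.75 to 0.26, and the median over all tested probes was -0.01. The 2 groups of arrays did not overlap for 2 of the 9 probes, beside 27.1% of all tested probes, so that both shares were near the background and say nothing particular about these genes. The 2 separated probes were 1 of the 3 SNHG7 probes, which was lower after HBO1 siRNA, and the SNHG10 probe, which was higher.

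**Figure D1:**
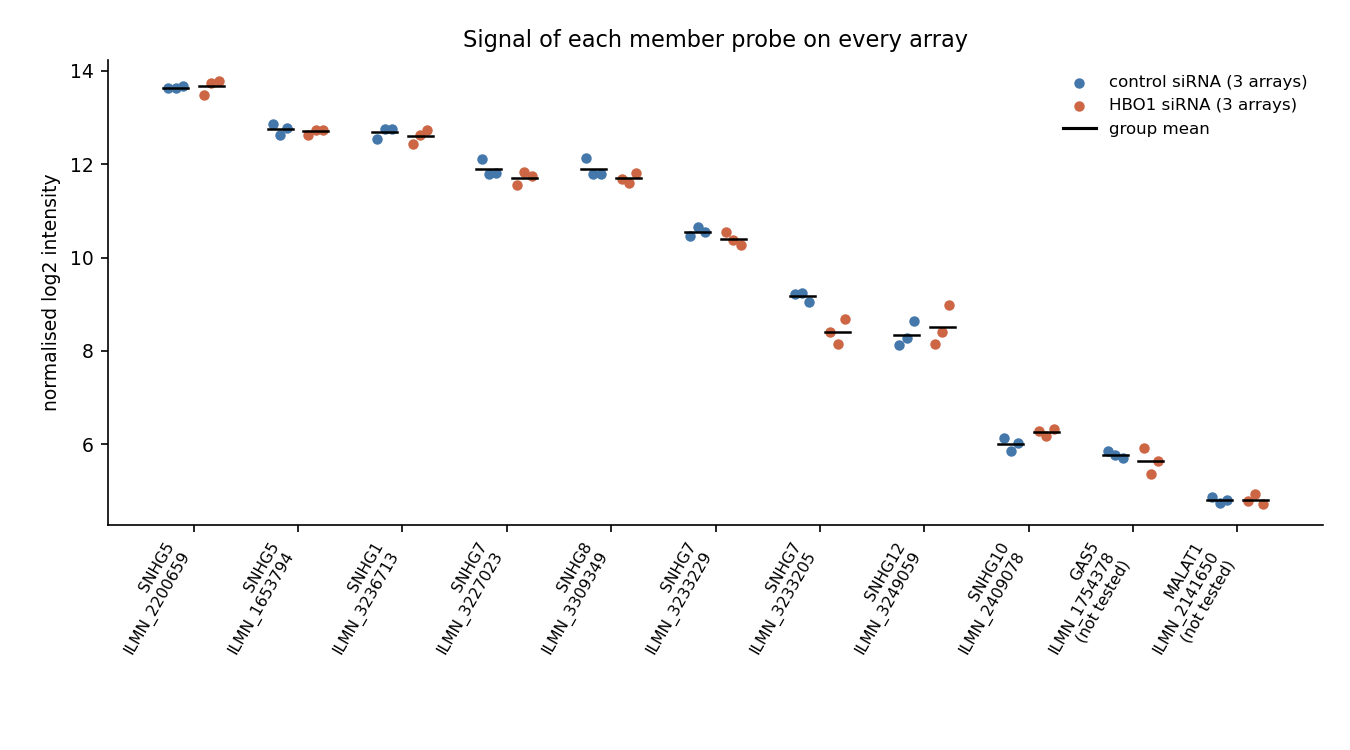
Normalised log2 intensity (vertical axis) of the 11 probes on each of 3 control siRNA arrays (blue) and 3 HBO1 siRNA arrays (orange), with group means as bars, ordered by signal. SNHG5 and SNHG1 probes lie between 12.4 and 13.8, and the GAS5 and MALAT1 probes lie below 6.

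The brightest probes belonged to SNHG5, host of the box C/D snoRNAs SNORD50A and SNORD50B. Its probe ILMN_2200659 read 13.63, 13.62 and 13.67 on the control arrays and 13.49, 13.73 and 13.78 on the HBO1 siRNA arrays, on the normalised log2 scale. The second probe, ILMN_1653794, read 12.85, 12.62 and 12.77 in control and 12.64, 12.73 and 12.74 in HBO1 siRNA cells. The groups overlapped for both probes, and the log2 fold changes were 0.03 (95% interval -0.22 to 0.28) and -0.04 (95% interval -0.28 to 0.19). Neither probe was called (limma adjusted p = 0.913 and 0.842). Both signs turned under some settings, with median scaling giving -0.05 for ILMN_2200659.

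SNHG1, host of the SNORD22 and SNORD25 to SNORD31 cluster and an RNA often reported at raised levels in tumours, was nearly as bright. Its probe ILMN_3236713 read 12.54, 12.76 and 12.76 in control and 12.43, 12.64 and 12.74 in HBO1 siRNA cells, with overlapping groups. The log2 fold change was -0.09 (SE 0.12, limma adjusted p = 0.732), and it lay between -0.16 and -0.00068 on leaving out single arrays. In both groups replicate 1 was the lowest array.

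SNHG8, host of the H/ACA snoRNA SNORA24, read 12.13, 11.79 and 11.80 in control and 11.69, 11.59 and 11.81 in HBO1 siRNA cells on probe ILMN_3309349. The groups overlapped because HBO1 siRNA replicate 3 lay above 2 control arrays. The log2 fold change was -0.21, with a 95% interval of -0.51 to 0.09 (limma adjusted p = 0.393). Without control replicate 1, the highest array, it was -0.097.

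SNHG7, host of SNORA17A and SNORA17B, was the member whose probes disagreed. Probe ILMN_3233205 read 9.22, 9.24 and 9.05 in control and 8.42, 8.14 and 8.69 in HBO1 siRNA cells. Every HBO1 siRNA array lay below every control array, and the mean went from 9.17 ± 0.10 (SD, n = 3) to 8.41 ± 0.27 (SD, n = 3). The log2 fold change was -0.75 (SE 0.15), which is 59.3% of the control value on the normalised scale, and only 0.769% of tested probes had an equal or lower value. With a limma adjusted p = 0.0511 it missed the threshold. A two-sided exact permutation test gave p = 0.1, its lowest possible value for 3 arrays against 3.

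The other SNHG7 probes were brighter and showed smaller differences. Probe ILMN_3227023 read 12.10, 11.79 and 11.81 in control and 11.55, 11.83 and 11.75 in HBO1 siRNA cells, a log2 fold change of -0.19 (SE 0.13, limma adjusted p = 0.450). Probe ILMN_3233229 read 10.46, 10.66 and 10.55 against 10.55, 10.38 and 10.28, a log2 fold change of -0.15 (SE 0.11, limma adjusted p = 0.475). Both overlapped between groups. The platform annotation ties ILMN_3233205 and ILMN_3227023 to the same RefSeq transcript and ILMN_3233229 to another, and the probe sequences were not used here, so where on the transcript each probe lies is not given.

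The disagreement was measured array by array. The signal of ILMN_3233205 relative to ILMN_3227023 was lower by -0.57 on the log2 scale in HBO1 siRNA than in control arrays, and relative to ILMN_3233229 by -0.60, with no overlap between groups in either case. The difference between the other 2 SNHG7 probes shifted by -0.04, and that between the 2 SNHG5 probes by -0.07, both with overlap. The two-sided exact permutation p was 0.1 for each of the first pairs and 0.2 after Benjamini-Hochberg adjustment over the 4 pairs, and 3 against 3 arrays cannot go lower than 0.1.

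The call for ILMN_3233205 turned on the setting while its direction did not. It passed an adjusted p of 0.05 under 7 of 15 alternatives, and the log2 fold change lay between -0.89 and -0.52 over all 15. Without HBO1 siRNA replicate 3 the value was -0.89 with a limma adjusted p = 0.0491, and without background correction it was -0.52 with a limma adjusted p = 0.00718. Under the other 2 SNHG7 probes 0 of 15 alternatives gave a call.

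**Figure D2:**
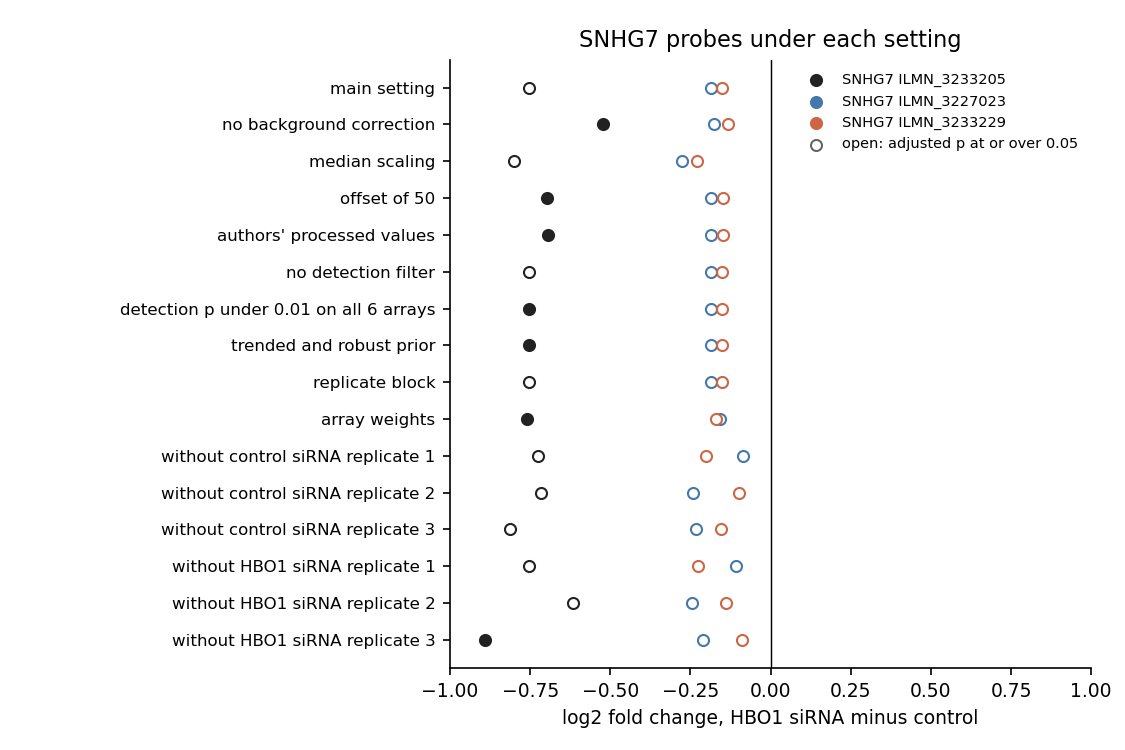
Log2 fold change (horizontal axis, HBO1 siRNA minus control) of the 3 SNHG7 probes under the main setting and 15 alternatives; filled points passed an adjusted p of 0.05 and open points did not. ILMN_3233205 stays between -0.89 and -0.52, and the other 2 probes stay between -0.28 and -0.09.

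SNHG10, which carries the scaRNA SCARNA13, was the dimmest tested member. Probe ILMN_2409078 read 6.13, 5.85 and 6.03 in control and 6.28, 6.19 and 6.33 in HBO1 siRNA cells. All 3 HBO1 siRNA arrays lay above all control arrays. The log2 fold change was 0.26 (95% interval 0.01 to 0.51), with an unadjusted p = 0.0415 and a limma adjusted p = 0.213. Its signal was within the lowest 12.7% of tested probes, and its value depended on the background setting. It was 0.18 with an offset of 50 and 0.075 when background was not corrected. The raw group means were 257.5 and 258.7 intensity units.

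SNHG12, host of SNORA16A, SNORA44, SNORA61 and SNORD99, had the most variable of the 9 tested probes. Probe ILMN_3249059 read 8.12, 8.28 and 8.65 in control and 8.15, 8.41 and 8.98 in HBO1 siRNA cells. Replicate 3 was the highest array in both groups, and the log2 fold change of 0.16 had a 95% interval of -0.39 to 0.71 (limma adjusted p = 0.746). Without HBO1 siRNA replicate 3 the value was -0.07.

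**Figure D3:**
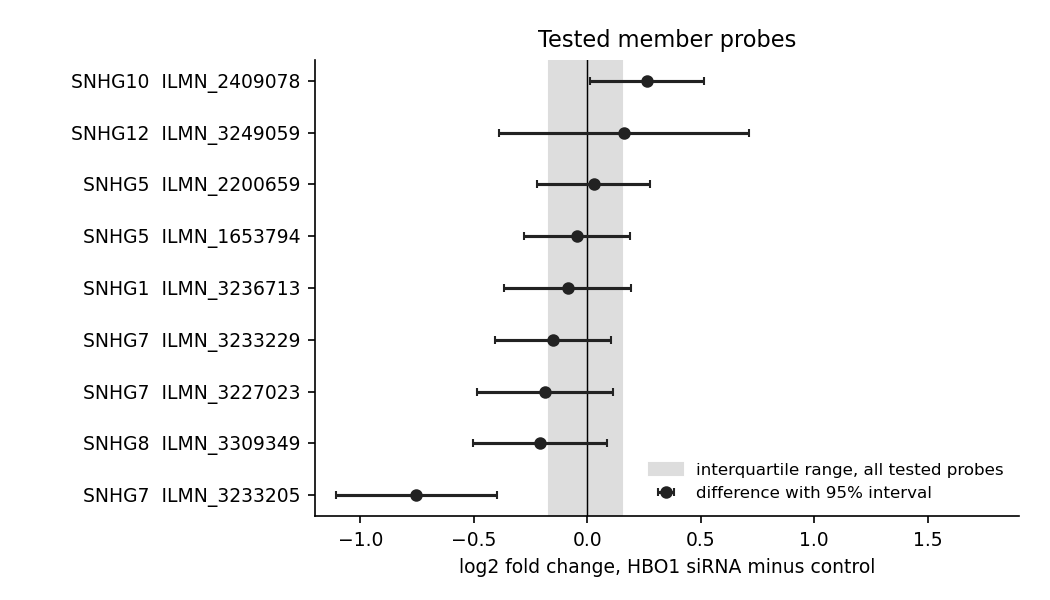
Log2 fold change (horizontal axis, HBO1 siRNA minus control) with 95% interval for the 9 tested probes; the grey band spans the interquartile range of all 21333 tested probes, from -0.17 to 0.15. Of the 9 points, ILMN_3233205 of SNHG7 at -0.75 lies farthest from the band.

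GAS5, host of SNORD44, SNORD47 and the SNORD74 to SNORD81 cluster, was read at the edge of background by its single probe, ILMN_1754378. Its raw signals were 255.7, 253.6 and 231.5 intensity units in control and 244.3, 198.1 and 244.2 in HBO1 siRNA cells. The detection p was under 0.05 on 1 of 3 control and 1 of 3 HBO1 siRNA arrays, so the probe missed the filter. With no filter the log2 fold change was -0.13 (SE 0.15, limma adjusted p = 0.794). The level of GAS5 RNA is therefore not well measured by this probe.

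MALAT1, an abundant nuclear RNA in most cell lines, gave no signal above background on its single probe, ILMN_2141650. The raw signals were 201.4, 190.9 and 183.2 in control and 184.8, 174.3 and 188.1 in HBO1 siRNA cells, with detection p values between 0.556 and 0.943. All 6 arrays were below detection, so no fold is given, and MALAT1 RNA in these cells was not measured by this probe. RefSeq places 0 snoRNA genes inside MALAT1 or NEAT1.

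Of the small RNAs encoded inside the host genes, 2 fell after HBO1 siRNA, and most of the others had negative values. Inside the 7 hosts, 14 snoRNA or scaRNA genes had a tested probe, and for 13 of them the log2 fold change was negative (median of all 14, -0.37). SNORA61 and SNORD99, both inside SNHG12, fell, 0 rose, and the other 12 did not pass limma's adjusted p of 0.05, beside 1.28% of genes called lower over the whole table. For 6 of the 14, every HBO1 siRNA array lay below every control array, beside 14.2% of all tested genes. A snoRNA probe can read the mature snoRNA or host RNA that still holds the intron, and which form was amplified for these arrays was not tested.

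Both calls were in the SNHG12 locus. SNORA61, an H/ACA snoRNA, read 10.71, 10.68 and 10.54 in control and 10.18, 9.82 and 10.08 in HBO1 siRNA cells, a log2 fold change of -0.62 (SE 0.12, limma adjusted p = 0.0475). SNORD99, a box C/D snoRNA, read 7.78, 7.69 and 7.67 in control and 7.10, 7.22 and 7.31 in HBO1 siRNA cells, a log2 fold change of -0.50 (SE 0.09, limma adjusted p = 0.0454). SNORA16A, a second H/ACA snoRNA, was at -0.54 (SE 0.20, limma adjusted p = 0.186), also without overlap between groups, and at -0.20 without background correction. The SNHG12 host probe was at 0.16 on the same arrays, and whether it reads spliced RNA alone was not checked.

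These 2 calls were narrow. Of the alternatives that held all 6 arrays, 7 kept the SNORA61 call, which was lost with no detection filter (limma adjusted p = 0.0821) and with the replicate block (limma adjusted p = 0.0655). SNORD99 lost its call under those 2 (limma adjusted p = 0.0825 and 0.0748) and under the trended and robust prior (limma adjusted p = 0.0517). Leaving out any array, control or HBO1 siRNA, ended both calls, with adjusted p between 0.0582 and 0.160 and log2 fold changes that stayed between -0.70 and -0.45. Without background correction SNORD99 was at -0.24.

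In the other loci the values pointed the same way without passing the test. SNORA24 inside SNHG8 read 8.50, 8.84 and 8.15 in control and 7.78, 8.04 and 7.58 in HBO1 siRNA cells, a log2 fold change of -0.70 (SE 0.20, limma adjusted p = 0.106) with no overlap. SNORD80 inside GAS5 read 10.15, 10.02 and 9.94 against 9.46, 9.64 and 9.79, a log2 fold change of -0.41 (SE 0.12, limma adjusted p = 0.110), also with no overlap. SNORD80 was thus read well above background on arrays where the GAS5 host probe was not. Without background correction SNORA24 was at -0.42 and SNORD80 at -0.34, and both then passed the test (limma adjusted p = 0.0388 and 0.0336), as each did under 2 of 15 alternatives.

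The remaining nested RNAs spread from -0.61 to 0.05. Inside GAS5, SNORD74 was at -0.43, SNORD76 at -0.12 and SNORD78 at -0.02. Inside SNHG1, SNORD30 was at -0.61 with no overlap, SNORD31 at -0.32, SNORD25 at -0.17 and SNORD22 at 0.05, where SNORD22 had a standard deviation of 0.95 over the HBO1 siRNA arrays. SNORA17B inside SNHG7 was at -0.30 and SCARNA13 inside SNHG10 at -0.34. SCARNA13 moved to -0.12 without HBO1 siRNA replicate 3 and to -0.58 without HBO1 siRNA replicate 2. Without background correction SNORD74 was at -0.14, SNORD30 at -0.29, SNORD31 at -0.16, SNORD25 at -0.086 and SNORA17B at -0.11. SNORA17A, also inside SNHG7, was detected on 2 of 3 control and 0 of 3 HBO1 siRNA arrays and was not tested. Whether the probes of SNORA17A and SNORA17B read only their own RNA was not checked. Both SNHG5 snoRNAs, SNORD50A and SNORD50B, were below detection on all 6 arrays.

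**Figure D4:**
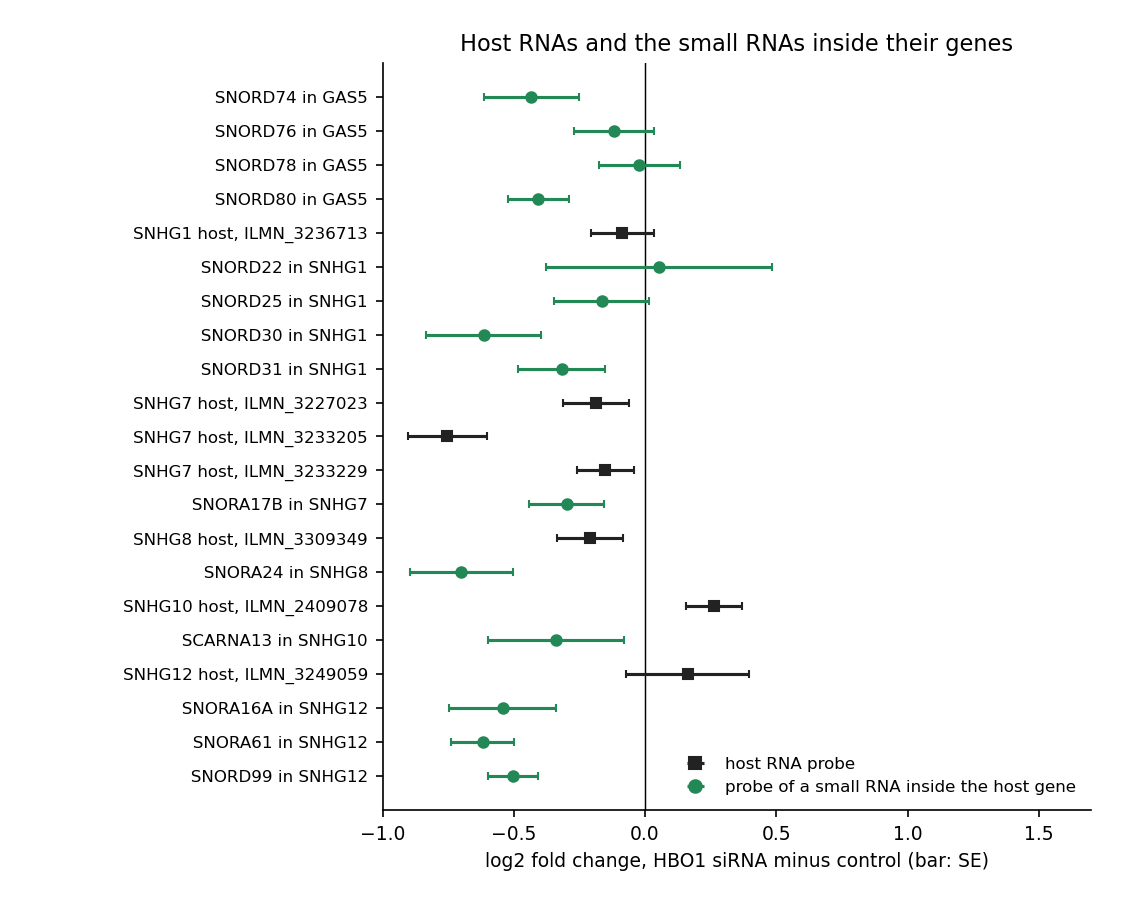
Log2 fold change (horizontal axis, HBO1 siRNA minus control, bars 1 SE) of host RNA probes (black squares) and of the 14 tested small RNAs inside those genes (green circles). SNORA61, SNORD99 and SNORA16A lie between -0.62 and -0.50, and the SNHG12 host probe lies at 0.16.

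Each nested RNA was also set against its own host on the same array, which was possible for 10 pairs in 5 loci, with the brightest host probe standing for the host. The difference of nested RNA minus host was lower in HBO1 siRNA than in control arrays, by group means, in 9 of 10 pairs. Because 13 of the 14 nested values were already negative, this count is not separate from them. The host probe decided the sign for SNORA17B, which shifted by -0.11 against ILMN_3227023, by -0.15 against ILMN_3233229 and by 0.45 against ILMN_3233205, the last 2 compared after seeing the data. The largest shifts were in SNHG12, at -0.78 for SNORA61, -0.70 for SNORA16A and -0.66 for SNORD99 on the log2 scale. The groups of arrays did not overlap for 3 of the 10 pairs, SNORA16A and SNORD99 with SNHG12 and SNORD30 with SNHG1. Among single tested probes 27.1% did not overlap, so this count says nothing particular about these pairs. The two-sided exact permutation p was 0.1 for those 3 pairs, the lowest this design can reach, and 0.333 after adjustment over the 10 pairs, and pairs of a locus share the host value.

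The same direction was seen across the snoRNA probes of the array. Of 301 snoRNA and scaRNA genes with a probe, 133 were tested. In limma's test 14 of them fell and 0 rose, which is 10.5% beside 1.28% of all tested genes called lower and 3.19% called in either direction. Without adjustment, 60 were lower and 1 higher at p under 0.05, beside 10.9% of all tested genes lower. Their median log2 fold change was -0.33, beside 0.01 over all tested genes, and 114 of 133 values were negative.

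**Figure D5:**
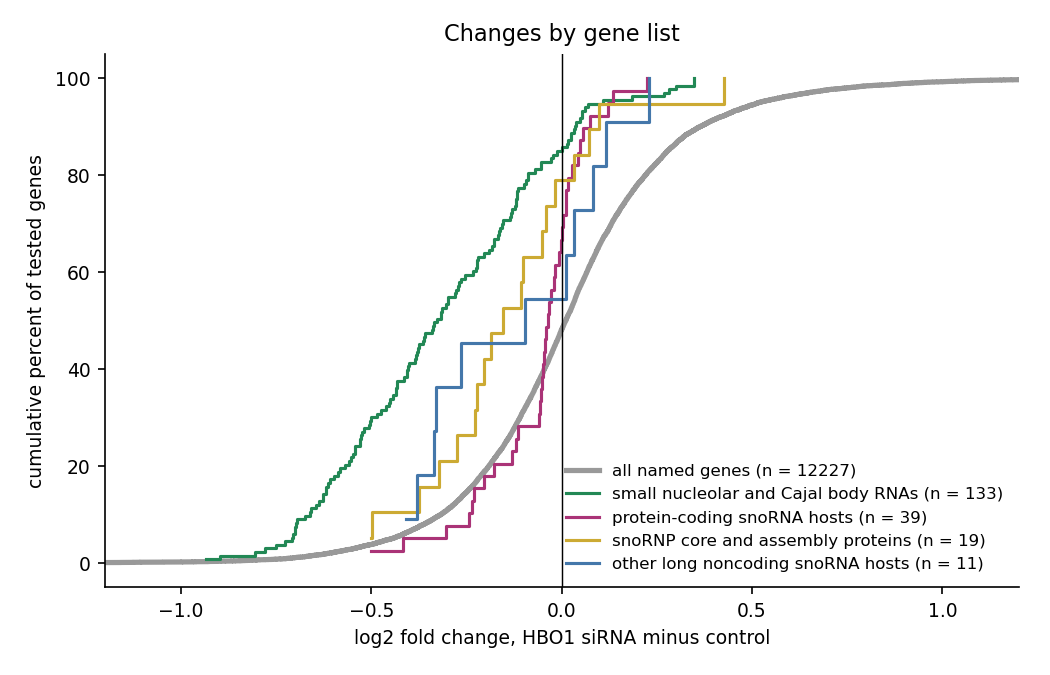
Cumulative percent of tested genes (vertical axis) by log2 fold change (horizontal axis, HBO1 siRNA minus control, drawn from -1.2 to 1.2) for all 12227 named genes and 4 gene lists. The curve of snoRNAs and scaRNAs (n = 133) lies to the left, with a median of -0.33, and that of protein-coding snoRNA hosts (n = 39) has a median of -0.04.

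Because a snoRNA detected in control cells alone could pass the filter, the values were also taken on other sets. Of the 95 genes detected on all 6 arrays, 12 fell and 0 rose, with a median of -0.34, and the share of all genes in such a set is not given. With detection p under 0.01 on all 6 arrays, 16 of 68 fell and 0 rose, beside 541 of all 15784 probes lower. With no filter, 4 of all 301 fell and 0 rose, beside 96 of all 47316 probes lower. The median was then -0.12, beside -0.0024 over all probes. The snoRNA probes were dim, at a median signal in the lowest 28.1% of tested probes, and without background correction the median was -0.14. Without control replicate 1, 2 or 3 or HBO1 siRNA replicate 1 or 2 limma called 0, with 37 to 55 lower at an unadjusted p under 0.05, and without HBO1 siRNA replicate 3 it was 6, while the median stayed between -0.37 and -0.26.

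Array by array, the median log2 level of the 133 genes was 7.10, 7.28 and 7.04 in control and 6.75, 6.84 and 6.88 in HBO1 siRNA cells, so that the groups did not overlap. The 133 include genes that passed the filter with more control than HBO1 siRNA arrays detected, so this separation is not free of the filter. Array medians of the 95 genes detected on all 6 arrays are not given. Box C/D snoRNAs had a median log2 fold change of -0.39 with 8 of 62 called lower, beside 1.28% of all tested genes. Box H/ACA snoRNAs had a median of -0.28 with 6 of 59 called lower, and scaRNAs a median of -0.22 with 0 of 12 called by limma and 2 lower at an unadjusted p of 0.05. Whether the classes differ was not tested.

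The 4 called snoRNAs with the largest changes included products of both coding and noncoding hosts. SNORD56, inside NOP56, fell by 0.94 on the log2 scale (SE 0.14, limma adjusted p = 0.0289), from 7.36, 7.11 and 7.07 in control to 6.27, 6.01 and 6.46. SNORD104, inside SNHG25, fell by 0.80 (SE 0.13, limma adjusted p = 0.0343), from 9.78, 9.64 and 9.38 to 8.92, 8.82 and 8.65. SNORD65, inside SNHG29, fell by 0.75 (SE 0.12, limma adjusted p = 0.0300), and the H/ACA snoRNA SNORA57 fell by 0.70 (SE 0.10, limma adjusted p = 0.0255). Without background correction SNORD56 was at -0.34, SNORD65 at -0.36 and SNORA57 at -0.34, all still called. Over all alternatives SNORD56 kept its call under 8 of 14, SNORD104 under 8 of 15, and SNORD65 and SNORA57 each under 9 of 15. With the replicate block SNORD56 and SNORD65 lost the call (limma adjusted p = 0.0528 and 0.0526). SNORD104 lost it with no detection filter (limma adjusted p = 0.0558). By location, genes inside protein-coding hosts had a median of -0.38 (8 of 51 called lower) and those inside other noncoding hosts -0.53 (2 of 17). Those inside none of the listed hosts had -0.13 (2 of 51), beside 1.28% of all tested genes called lower. Median signals of these 3 sets were in the lowest 31.5%, 22.6% and 21.8% of tested probes. Whether location or signal matters was not tested.

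Calls among the other host RNAs were few, in short lists. Among 11 tested noncoding hosts outside the members, 0 were called by limma, beside 3.19% of all genes, and 3 were lower at an unadjusted p of 0.05, beside 10.9% of all genes, with a median of -0.10. SNHG15 was at -0.41 (limma adjusted p = 0.249) and DANCR, host of an H/ACA snoRNA, at -0.38 (limma adjusted p = 0.0991). Among 39 tested protein-coding hosts, most of them genes of ribosomal proteins and translation factors, 1 fell and 0 rose, with a median of -0.04. That gene was NOP56, and 1.28% of all genes were called lower. Before adjustment 3 of the 39 were lower and 1 higher at p under 0.05, beside 10.9% of all genes lower. A dimmer probe of NCL, the gene of nucleolin, was also called lower (limma adjusted p = 0.0460).

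Of 19 tested core and assembly proteins of snoRNPs, the particles of snoRNA and protein, 1 fell and 0 rose, beside 1.28% of all genes called lower. Before adjustment 6 were lower and 1 higher at p under 0.05, beside 10.9% of all genes lower. Values were negative for 15 of the 19, with a median of -0.15, beside 48.2% of all genes with a median of 0.01. NOP56, a core protein of box C/D snoRNPs and itself a snoRNA host, read 13.56, 13.67 and 13.60 in control and 13.15, 13.15 and 13.02 in HBO1 siRNA cells. It fell by 0.50 (SE 0.09, limma adjusted p = 0.0407), and its other 2 probes were at -0.55 (limma adjusted p = 0.0607) and -0.29 (limma adjusted p = 0.177). The call was lost on leaving out any of the 6 arrays, with log2 fold changes from -0.53 to -0.46.

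Factors that handle these noncoding RNAs in the nucleus or in decay showed 0 calls in limma's test, in lists so short that the share over all genes, 3.19% called and 10.9% lower before adjustment, gives few. Of 12 tested genes of nonsense-mediated decay, the pathway that degrades several spliced host RNAs, 1 was higher and 1 lower before adjustment, with a median of -0.03, and the largest values were 0.47 for PNRC2 (limma adjusted p = 0.0585, called under 6 of 15 alternatives) and -0.31 for MAGOHB (-0.088 without background correction). Of 11 paraspeckle proteins and NEAT1 3′ end factors, 0 were higher and 2 lower unadjusted, with a median of -0.18 and values of -0.55 for SFPQ, a core paraspeckle protein (limma adjusted p = 0.107), and -0.36 for NUDT21, a cleavage factor subunit. Of 15 nuclear speckle and MALAT1 binding proteins, 0 were higher and 2 lower unadjusted, with a median of -0.06 and values of -0.29 for PNN and -0.29 for SRSF3.

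Among 24 other long noncoding and structural RNAs, 17 had a probe, 10 were tested, 1 fell and 0 rose, beside 1.28% of all genes called lower. CYTOR, a cytoplasmic noncoding RNA, fell by 0.61 (SE 0.10, limma adjusted p = 0.0322), from 7.95, 7.96 and 7.86 in control to 7.21, 7.44 and 7.30. A second CYTOR probe was at -0.63 (limma adjusted p = 0.0518) and another at -0.23 (limma adjusted p = 0.440). Without background correction the called probe was at -0.31, and leaving out any of the 6 arrays ended the call, with log2 fold changes from -0.67 to -0.55.

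The genes with the most similar profiles over the 6 arrays were found for the tested host with the highest and the lowest change, each by its brightest probe. For SNHG10 they were ACADVL, NMB and CDIPT, whose centred log2 values differed from it by a root mean square of 0.036, 0.038 and 0.046. For SNHG8 they were UTRN, HYAL6P and AIFM2, at 0.043, 0.045 and 0.050. With 6 arrays and 12227 genes such closeness describes the profiles and nothing more.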

How the data were processed

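Total RNA from 6 samples of UWB1.289 cells was hybridised to Illumina bead arrays, 1 array per sample. The deposited table of probe intensity holds average signals with a detection p-value per probe and array, per the file headers. Its array medians differ, so it was taken as not normalised. The authors' second table was taken from its values to be normalised log2 intensity, with a median of 6.31 in every column, and served as an alternative. Per the submitters' processing notes the tools were GenomeStudio and lumi, with their versions and settings not given in the sources used.

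The neqc function of limma 3.58.1 (R 4.3.3, statmod 1.5.0) corrected background and applied quantile normalisation, with an offset of 16 and negative controls inferred from detection p-values. Testing was limited to the 21333 of 47316 probes with detection p under 0.05 on 3 or more of the 6 arrays. lmFit and eBayes compared the groups without covariates, standard errors are limma's moderated ones, and the Benjamini-Hochberg adjustment ran over every tested probe. The fit was tested on simulated arrays. For single values, two-sided exact permutation tests were used. Arrays have no read depth, and their number limits the precision.

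Gene names came from the platform annotation, and 30109 probes carried a single symbol. Symbols were updated through Entrez identifiers with the RefSeq table of GRCh38.p14, which also gave start sites and the small RNAs inside each host gene. In lists, a gene was represented by its tested probe with the highest mean intensity. Every member probe was described. From each list up to 4 called genes with the largest change, or the 2 genes with the largest change where 0 were called, are named, while cell type markers are given as counts. Small RNAs inside member genes were named as well. The members, the lists and the tests were chosen with earlier results of these data known. Alternatives were median scaling, no background correction, an offset of 50, the authors' values, dropping the detection filter, requiring detection p under 0.01 on all 6 arrays, array weights, a robust prior with a trend, the replicate number as a block and leaving out each array.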

Additional observations from a re-analysis of the deposited data

How the results depend on the processing

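The number of probes called over the whole table moved widely: 582 in the setting used, 1811 without background correction, 1020 with an offset of 50, 979 with the authors' values, 247 with no detection filter, 1136 with a detection p under 0.01 on all 6 arrays, 1886 with a trended and robust prior, 913 with array weights, and 1 to 271 on leaving out an array. Of the member probes 0 were called, and 1 (SNHG7 ILMN_3233205) was called without background correction, with an offset of 50, with the authors' values, under the strict detection filter, with a trended and robust prior, with array weights and at an adjusted p under 0.10; leaving out an array gave 0 to 1. Called snoRNA and scaRNA genes numbered 14, and 22 without background correction, 24 with a trended and robust prior, 4 with no detection filter and 0 to 6 on leaving out an array, settings applied to that count after seeing the data. Same-numbered arrays did not deviate together in every pair, with correlations of 0.26, -0.02 and 0.22 for replicates 1, 2 and 3. Arrays of unlike number had -0.28 to 0.09, so replicates 1 and 3 deviated with their own number and replicate 2 did not. Replicate numbers were not taken as pairs in the setting used. With the replicate block 282 probes, 0 member probes and 4 snoRNA genes were called. Start windows with a pyrimidine tract numbered 4, and 2 when its C had to lie at the annotated start base itself.

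Signs turned for probes near 0. SNHG5 ILMN_2200659 gave -0.052 with median scaling and -0.027 to 0.12 on leaving out arrays, SNHG5 ILMN_1653794 -0.11 to 0.0089, SNHG12 -0.074 to 0.34, SNORD78 -0.14 to 0.13 and SNORD22 -0.32 to 0.59. The other member probes kept their sign under all alternatives run. The cause of these shifts was not tested. Signal over background limits GAS5, MALAT1 and SNHG10.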
